A study of Mus musculus with 4 samples.

Results

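Chromatin accessibility was examined at 8 genes whose products hold hematopoietic stem cells (HSCs) in the bone marrow niche or guide them back to it: the chemokine receptor gene Cxcr4, the integrin alpha chain genes Itga4, Itga5, Itga6 and Itgal, the integrin beta chain gene Itgb1, the hyaluronan receptor gene Cd44 and the selectin ligand gene Selplg. They were chosen by name, and their peaks were those overlapping the GRCm38 gene body or the 5000 bp upstream of it. This gave 59 of the 93513 peaks listed, in 8 of the 17159 protein-coding genes with at least 1 peak. Of the 59, 11 were promoter peaks, that is, they lay within 1000 bp of a protein-coding transcript start, and 48 were other peaks. No locus held the promoter peak of another gene. All 11 promoter peaks and 40 of the 48 other peaks had at least 20 counts, and the remaining 8, which were 1 to 149 bp wide and held at most 5 counts each, were left out of ratios per peak.

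Single-cell ATAC-seq, in which the Tn5 transposase cuts open chromatin, was carried out on long-term HSCs (LT-HSCs) of C57BL/6JRj mice. The table used here belongs to the CLCA3A1high and the CLCA3A1low LT-HSC samples, from animals 22 to 28 months old. Both were sorted by an antibody to the surface protein CLCA3A1, with 1 sample per group, and each sample pooled 2500 cells from each of 4 mice to 10000 cells. The LT-HSC gate of the study kept cells without lineage markers, with Sca-1 and c-Kit, and without CD34 and CD135. The cells of the table carry 1 of 2 barcode suffixes, here called set 1 and set 2, and no label says which suffix belongs to which sample, so ratios between the sets carry no direction between CLCA3A1high and CLCA3A1low. Young LT-HSCs (3 to 4 months) and old LT-HSCs (22 to 28 months), the other two groups of the series, were not analysed here.

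Set 1 held 818 cells and 13050952 counts, with a median of 13358.5 counts per cell. Set 2 held 636 cells and 9820094 counts, with a median of 12755, and the sets shared 0 barcodes. With 1 library per set there were no replicates, cells are not replicates, and no test was made. Intervals are 95% intervals that cover counting error only and are too narrow, because 88.7% of nonzero counts were even, as when both ends of a fragment are counted. Of 10 LT-HSC markers, 9 had a promoter peak, and after thinning each cell to 4899 counts these were open in 1.43% to 35.9% of cells, with Gata2, Mecom, Meis1 and Kit the most often open and Ly6a without a promoter peak. The promoters of Cd79a and Csf1r, which mark B cells and myeloid cells, were open in at most 0.893% of cells, and the T cell genes Cd3e, Cd4 and Cd8a had no promoter peak. Open promoters were not limited to LT-HSC genes, since Elane, Klf1, Pax5 and Col1a1 were open in 8.41% to 14.3% of cells. In set 1, 7 of the 9 LT-HSC markers with a promoter peak were higher, at a summed 479.6 against 421.1 CPM, that is, counts scaled to 1000000 per set. The lean to set 1 was not limited to LT-HSC genes. The 2 erythroid markers with a promoter peak (Klf1 and Epor) were also higher there, at a summed 75.5 against 56.5 CPM. Markers of B cells, of neutrophils and monocytes, and of non-blood cells went in both directions. All 3 progenitor markers (Flt3, Cd48 and Cd34) were higher in set 2, at a summed promoter level of 85.0 against 44.4 CPM. Flt3 encodes CD135, so 2 of these 3 progenitor markers code for proteins the gate excluded.

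HSCs stay in the marrow because CXCR4 senses CXCL12 made by stromal cells and because integrins, each a pair of an alpha and a beta chain, bind matrix and endothelial ligands. The beta chain of Itgb1 pairs with the alpha chains of Itga4 (a receptor for VCAM1 and fibronectin), Itga5 (fibronectin) and Itga6 (laminin), while the alpha chain of Itgal pairs with the beta chain of Itgb2 to form LFA-1, which binds ICAMs. CD44 binds hyaluronan and, in some glycoforms, selectins, and PSGL-1, the product of Selplg, is the main leukocyte ligand of P-selectin.

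Peaks picked by the size of their set ratio, not by their counts, are shown by their central 300 bases. These are read on the plus strand of the RefSeq GRCm38 assembly. The peaks are the 4 outside promoters with the most extreme set ratios among those with at least 50 counts, and the 3 promoter peaks past 1.5-fold. Capitals mark the word of the factor PU.1 (GAGGAAGT) and the word AGATAA of GATA factors, on either strand, and of the 7 stretches 2 hold such a word. Itga5 intron 1 to intron 2 (chr15:103358679-103358978) and Itgal intron 15 to exon 17 (chr7:127313933-127314232) had the largest ratios of set 1 over set 2:
Itga5 peak at 7.94 kb: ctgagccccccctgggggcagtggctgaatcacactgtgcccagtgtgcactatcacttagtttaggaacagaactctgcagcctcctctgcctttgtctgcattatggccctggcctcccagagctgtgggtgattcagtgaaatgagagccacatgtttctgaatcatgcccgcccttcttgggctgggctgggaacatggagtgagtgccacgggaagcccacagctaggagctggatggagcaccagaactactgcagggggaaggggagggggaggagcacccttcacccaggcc
Itgal peak at 17.8 kb: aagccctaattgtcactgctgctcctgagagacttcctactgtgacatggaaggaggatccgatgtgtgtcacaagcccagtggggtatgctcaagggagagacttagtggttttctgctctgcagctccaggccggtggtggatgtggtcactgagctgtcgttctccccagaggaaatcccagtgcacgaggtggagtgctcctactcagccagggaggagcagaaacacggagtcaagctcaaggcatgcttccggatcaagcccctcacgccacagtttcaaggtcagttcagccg
Itga6 intron 21 and exon 21 (chr2:71843357-71843656) and Cd44 intron 5 (chr2:102852080-102852379) had the smallest ratios:
Itga6 peak at 56.6 kb: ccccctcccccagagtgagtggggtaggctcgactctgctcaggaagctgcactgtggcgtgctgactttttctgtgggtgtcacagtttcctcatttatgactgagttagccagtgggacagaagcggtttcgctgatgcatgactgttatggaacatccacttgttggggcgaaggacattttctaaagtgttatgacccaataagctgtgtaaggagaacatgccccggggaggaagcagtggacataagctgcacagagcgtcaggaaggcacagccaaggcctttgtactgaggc
Cd44 peak at 49.4 kb: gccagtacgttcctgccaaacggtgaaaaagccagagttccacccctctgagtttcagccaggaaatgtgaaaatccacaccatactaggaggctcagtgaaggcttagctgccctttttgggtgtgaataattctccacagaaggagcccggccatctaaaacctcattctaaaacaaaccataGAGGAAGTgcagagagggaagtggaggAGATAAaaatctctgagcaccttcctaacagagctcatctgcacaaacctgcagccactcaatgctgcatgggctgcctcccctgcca
The promoter peaks were those at the Itgal start (chr7:127296200-127296499), at an internal Itgal start in intron 11 (chr7:127308891-127309190) and at the second Selplg start (chr5:113830344-113830643):
Itgal promoter at 0.089 kb: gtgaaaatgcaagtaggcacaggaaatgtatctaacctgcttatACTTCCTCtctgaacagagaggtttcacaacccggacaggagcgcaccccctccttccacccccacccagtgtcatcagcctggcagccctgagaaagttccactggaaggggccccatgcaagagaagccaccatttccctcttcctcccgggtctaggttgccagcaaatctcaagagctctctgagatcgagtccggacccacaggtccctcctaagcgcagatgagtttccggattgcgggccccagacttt
Itgal internal promoter at 12.8 kb: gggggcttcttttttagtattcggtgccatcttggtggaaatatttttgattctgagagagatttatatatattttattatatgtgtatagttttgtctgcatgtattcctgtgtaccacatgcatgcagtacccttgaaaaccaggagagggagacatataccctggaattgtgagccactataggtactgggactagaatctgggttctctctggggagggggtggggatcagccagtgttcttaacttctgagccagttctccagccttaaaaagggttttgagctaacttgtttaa
Selplg promoter at 2.15 kb: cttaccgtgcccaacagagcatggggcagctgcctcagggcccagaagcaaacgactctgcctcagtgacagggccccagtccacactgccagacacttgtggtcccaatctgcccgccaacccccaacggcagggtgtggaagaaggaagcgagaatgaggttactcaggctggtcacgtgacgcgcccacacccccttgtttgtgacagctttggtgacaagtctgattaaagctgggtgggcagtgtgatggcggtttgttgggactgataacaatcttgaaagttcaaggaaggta
Distances run from the first coding transcript start to the centre of the peak. The Itgal promoter holds the PU.1 word on the minus strand, and the Cd44 stretch holds both words on the plus strand.

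All 8 genes had an accessible promoter in both sets. Per kb of peak, the promoter peaks at the first coding start ranked in set 1 as Itgb1 (22.1 CPM per kb), Cxcr4 (20.0), Itga6 (16.7), Itga4 (12.4), Itgal (10.5), Itga5 (10.2), Cd44 (10.1) and Selplg (6.74). The intervals of Itgb1 and Cxcr4 overlapped, as did those of each pair of neighbours from Itga4 to Cd44, so these neighbours were not separated at this depth. In set 2 the Itgal promoter ranked first at 27.4 CPM per kb, followed by Cxcr4 (22.0), Itgb1 (18.3), Itga4 (16.7), Itga6 (13.7), Cd44 (12.04), Itga5 (9.74) and Selplg (9.10). There the neighbours Itgb1 and Itga4 overlapped, and so did each pair from Itga6 to Selplg. Over both sets these 8 peaks lay between the 22.4th percentile (Selplg) and the 68.4th percentile (Cxcr4) of promoter peaks in CPM per kb, against the 86.6th for Cxcr4 and the 87.4th for Itga4 by CPM without regard to width, since these 2 peaks are 3039 and 4580 bp wide.

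**Figure D1:**
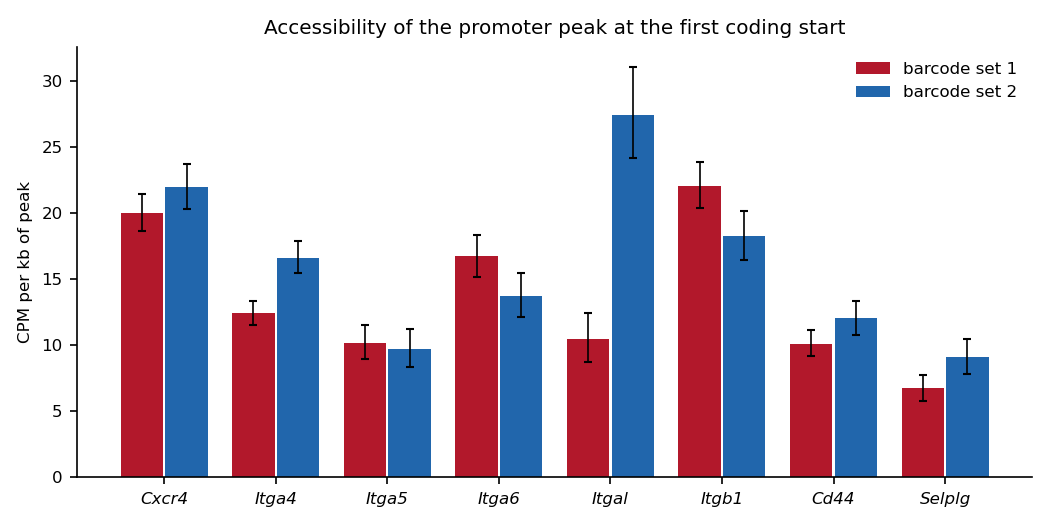
CPM per kb of peak (vertical axis) at the promoter peak of the first coding start of each gene, for barcode set 1 (red) and barcode set 2 (blue); bars are pooled values of each set and error bars are exact Poisson intervals. The Itgal bars stand apart most, at 10.5 in set 1 and 27.4 in set 2.

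Summed over all peaks of a locus, 2 of the 8 genes differed by more than 1.5-fold between the sets, Itgal and Selplg, both higher in set 2, and none of the 8 was past the fold in the direction of set 1. Over the 16965 protein-coding loci with at least 20 counts, 4.33% were past the fold in the direction of set 2 and 5.56% in that of set 1. The median log2 ratio of set 1 over set 2 was -0.22 over the 8 loci and 0.0038 over all loci. Locus sums compare the sets within a gene, not genes with one another, since loci differ in length and number of peaks.

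Cxcr4, the receptor for CXCL12, had 1 peak, 3039 bp wide, which covered its start, exon 1 and intron 1. It held 60.8 CPM (56.7 to 65.2) in set 1 and 66.8 CPM (61.8 to 72.1) in set 2, with 794 and 656 counts. The log2 ratio was -0.13 (-0.29 to 0.016), so the interval included no difference. At equal depth the promoter carried a count in 19.1% of cells of set 1 and 20.4% of set 2, a difference of -1.27 percentage points (-5.68 to 3.05). The whole accessibility of the Cxcr4 locus, as the rule bounds it, thus lay at the promoter. Upstream of the window, between 5 and 20 kb from the gene, there were 2 more peaks, at -5.26 kb with 5 counts in all and at -10.96 kb with 43.

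Itga4, the alpha chain of the VCAM1 receptor VLA-4, had the widest promoter peak of the genes, 4580 bp, with 56.9 CPM in set 1 and 76.3 CPM in set 2. Its log2 ratio was -0.42 (-0.57 to -0.27) without a pseudocount. The other 6 peaks summed to 27.4 and 31.5 CPM, a log2 ratio of -0.20 (-0.43 to 0.022), and 5 of them lay in intron 2. The most counted of these, 14.9 kb downstream of the start, held 19.4 CPM in set 1 and 22.9 CPM in set 2. A smaller intron 2 peak at 10.3 kb leaned the other way, with 3.75 against 2.75 CPM and an interval that included 0 (log2 0.34, -0.20 to 0.88). In all, the locus held 84.3 CPM in set 1 and 107.7 CPM in set 2 (log2 -0.35, -0.48 to -0.23), inside the fold and at the 9.99th percentile of loci. The difference depended on how a cell was counted: with each peak counted once per cell, the locus ratio was -0.17. At equal depth 19.4% and 22.7% of cells had an open Itga4 promoter, a difference of -3.32 points (-7.84 to 1.11). At 9798 counts per cell, with fewer cells deep enough, the shares were 30.9% and 39.3%, a difference of -8.41 points (-14.4 to -2.38).

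Itga5, the alpha chain of the fibronectin receptor, was the locus most tilted to set 1, with 93.2 CPM (88.1 to 98.6) in set 1 and 70.9 CPM (65.7 to 76.3) in set 2. The log2 ratio was 0.40 (0.26 to 0.53), at the 89.8th percentile of loci and inside the fold. Its promoter did not share this: it held 19.3 CPM in set 1 and 18.4 CPM in set 2 (log2 0.067, -0.21 to 0.35), against 73.9 and 52.4 CPM for the other 7 peaks together (log2 0.50, 0.34 to 0.65). Most of it came from 1 peak, without which the other 6 gave a log2 ratio of 0.14 (-0.086 to 0.36). That peak, 1742 bp wide and centred 7.94 kb downstream of the start, runs from intron 1 over exon 2 into intron 2, and its centre is printed above. It held 42.9 CPM (39.4 to 46.6) in set 1 and 24.2 CPM (21.3 to 27.5) in set 2, a log2 ratio of 0.80 (0.59 to 1.02) with a pseudocount of 1 CPM. It carried more counts than the Itga5 promoter in both sets. At equal depth it was open in 15.4% of cells of set 1 and 8.39% of set 2. A second intron 1 peak at 4.69 kb leaned the same way, at 14.7 and 10.2 CPM (log2 0.49, 0.16 to 0.82). Upstream of the gene, a peak at -3.87 kb was higher in set 2, at 1.76 against 3.87 CPM (log2 -0.82, -1.36 to -0.26; 61 counts). At -11.7 kb, outside the window of the rule, a peak was again higher in set 1, at 10.6 against 5.09 CPM (log2 0.93, 0.51 to 1.34).

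Itga6, the alpha chain of the laminin receptor, had 17 peaks, more than any other of the 8 genes, and held 128.9 CPM in set 1 and 137.4 CPM in set 2 (log2 -0.092, -0.20 to 0.012). Its annotated gene body starts 41324 bp before the first coding start, and the locus is therefore long. The promoter was higher in set 1, with 33.8 CPM (30.7 to 37.1) against 27.7 CPM (24.5 to 31.2), a log2 ratio of 0.29 (0.066 to 0.51), while the other 16 peaks summed to 95.1 and 109.7 CPM, a ratio of -0.21 (-0.32 to -0.087). The negative ratio of the other peaks rested on 1 peak, over exon 21: without it they summed to 90.0 and 92.9 CPM (log2 -0.045, -0.17 to 0.082), a check chosen after the values were seen. The most counted peak outside promoters of all 8 genes lay in Itga6 intron 2, 26.6 kb downstream, with 47.8 CPM (44.1 to 51.7) in set 1 and 52.6 CPM (48.2 to 57.4) in set 2. Like the Itga5 peak, it held more counts than the promoter of its gene, but it differed little between the sets (log2 -0.14, -0.30 to 0.031) and was open in 18.6% and 18.8% of cells at equal depth.

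The smallest ratio of any tested peak at these genes was also at Itga6. The peak over exon 21 and part of intron 21, 56.6 kb downstream of the start, held 5.06 CPM (3.91 to 6.43) in set 1 and 16.8 CPM (14.3 to 19.6) in set 2. Its log2 ratio was -1.56 (-1.93 to -1.19), at the 2.35th percentile of peaks outside promoters, and it was open in 2.27% and 6.61% of cells at equal depth. The nearest tested peaks on both sides of it, in intron 12 and intron 25, had log2 ratios of -0.15 and -0.093 with intervals that included 0. At the upstream end, the peak at -41.9 kb was higher in set 1, at 9.42 against 5.80 CPM (log2 0.62, 0.21 to 1.03). A peak at -51.1 kb, upstream of the window of the rule, was higher in set 2, at 2.68 against 9.67 CPM (log2 -1.54, -1.98 to -1.08).

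Itgal, the alpha chain of LFA-1, showed the largest promoter difference. The peak at its start held 9.81 CPM (8.18 to 11.7) in set 1 and 25.7 CPM (22.6 to 29.0) in set 2. The log2 ratio was -1.30 (-1.60 to -1.01), at the 0.925th percentile of promoter peaks. At equal depth an Itgal promoter peak was open in 4.67% of cells of set 1 and 9.64% of set 2, a difference of -4.97 points (-7.99 to -2.17). The rest of the locus leaned to set 1. A small promoter peak at an internal start in intron 11, 12.8 kb downstream, held 3.60 CPM in set 1 and 1.63 CPM in set 2 (log2 0.81, 0.22 to 1.36; 63 counts), which was no longer among the peaks past the fold with each peak counted once per cell or in thinned cells. The peak 17.8 kb downstream, from intron 15 to exon 17, held 4.52 and 2.44 CPM (log2 0.68, 0.14 to 1.21; 83 counts). Locus sums were 19.6 and 31.2 CPM (log2 -0.67, -0.91 to -0.42), the 3.38th percentile of loci. The start peak held 50% of the locus counts of set 1 and 82.4% of those of set 2. With 20000 bp upstream in place of 5000 bp, the Itgal locus ratio was -0.49, inside the fold. The 5 peaks added by that window differed in direction. The most counted, at -14.97 kb, held 13.7 CPM in set 1 and 8.55 CPM in set 2 (log2 0.62, 0.27 to 0.98), while the one at -8.12 kb held 0.919 and 6.82 CPM (log2 -2.03, -2.49 to -1.48). The other 3 had log2 ratios from -0.36 to -0.89.

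Itgb1, the beta chain shared by the Itga4, Itga5 and Itga6 receptors, held 91.4% of its locus counts in set 1 and 88.1% in set 2 at its promoter peaks. The peak at the start held 48.0 CPM (44.4 to 52.0) in set 1 and 39.7 CPM (35.9 to 43.9) in set 2 (log2 0.27, 0.088 to 0.45). The second promoter peak, at an internal start in intron 14, held 2.38 and 2.55 CPM (log2 -0.071, -0.64 to 0.50). The most counted peak outside the promoters lay in intron 3 at 23.8 kb, with 3.52 and 3.56 CPM. The locus ratio was 0.20 (0.032 to 0.37), and at equal depth 17.9% and 15.2% of cells had an open promoter, a difference of 2.71 points (-1.40 to 6.70). The 4 integrin genes that code for VLA-4, VLA-5, VLA-6 and their common beta chain thus all lay inside the fold, 2 with a locus ratio above 0 (Itga5 and Itgb1) and 2 below 0 (Itga4 and Itga6, the latter with an interval that included 0).

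Cd44, the hyaluronan receptor, held 85.7 CPM (80.7 to 90.8) in set 1 and 105.4 CPM (99.1 to 112.0) in set 2 over 11 peaks (log2 -0.30, -0.42 to -0.18). Its promoter held 30.3 and 35.9 CPM (log2 -0.25, -0.46 to -0.037). The peaks of its first intron and those further downstream differed. Of the 7 peaks in intron 1 outside the promoter, 6 had a ratio above 0, with log2 values from -0.11 to 0.91. Only the peak at 25.3 kb, with 36 counts, had an interval that excluded 0 (log2 0.91, 0.25 to 1.44). The median log2 ratio over all tested peaks outside promoters was 0.028, so a ratio above 0 was common. The most counted of the 7, at 34.0 kb, held 17.4 CPM in set 1 and 16.5 CPM in set 2. All 3 peaks beyond intron 1 were higher in set 2 and past the fold. The peak in intron 18, 86.2 kb downstream, was the most counted Cd44 peak outside the promoter and held 12.2 CPM (10.4 to 14.2) in set 1 and 25.4 CPM (22.3 to 28.7) in set 2. Its log2 ratio was -0.999 (-1.28 to -0.72), and it was open in 4.81% and 9.46% of cells at equal depth. The intron 5 peak at 49.4 kb held 1.69 and 4.68 CPM (log2 -1.08, -1.60 to -0.53), and the peak in exon 19 at 88.7 kb held 0.536 and 3.36 CPM (log2 -1.50, -1.96 to -0.90; 40 counts). The grouping of Cd44 peaks into intron 1 and beyond was made after their values were seen.

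Selplg, which codes for PSGL-1, had the most negative locus ratio, with 32.0 CPM (29.0 to 35.2) in set 1 and 51.8 CPM (47.4 to 56.5) in set 2. The log2 ratio was -0.70 (-0.89 to -0.51), at the 3.12th percentile of loci. With each peak counted once per cell it was -0.58, just inside 1.5-fold. Its promoter peaks (log2 -0.70) and its other peaks (log2 -0.69) gave nearly the same ratio. The peak at the second start, which covers exon 1 and part of intron 1, held 10.3 CPM (8.67 to 12.2) in set 1 and 20.7 CPM (17.9 to 23.7) in set 2 (log2 -0.93, -1.23 to -0.63). The peak over the first start held 13.9 and 18.8 CPM (log2 -0.41, -0.69 to -0.12). The most counted peak outside the promoters, in intron 1 at 4.22 kb, held 4.67 and 7.03 CPM (log2 -0.50, -0.94 to -0.060), and the peak at -4.53 kb held 1.30 and 3.46 CPM (log2 -0.95, -1.50 to -0.37; 51 counts). All 5 tested Selplg peaks had a ratio below 0, with an interval that included 0 for the peak at 8.14 kb. At equal depth 8.81% and 13.2% of cells had an open Selplg promoter, a difference of -4.40 points (-7.96 to -1.0). The promoters of Itgal and Selplg and the progenitor markers Flt3, Cd48 and Cd34 were all higher in set 2, and the part of other cells in the Itgal and Selplg ratios was not tested.

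**Figure D2:**
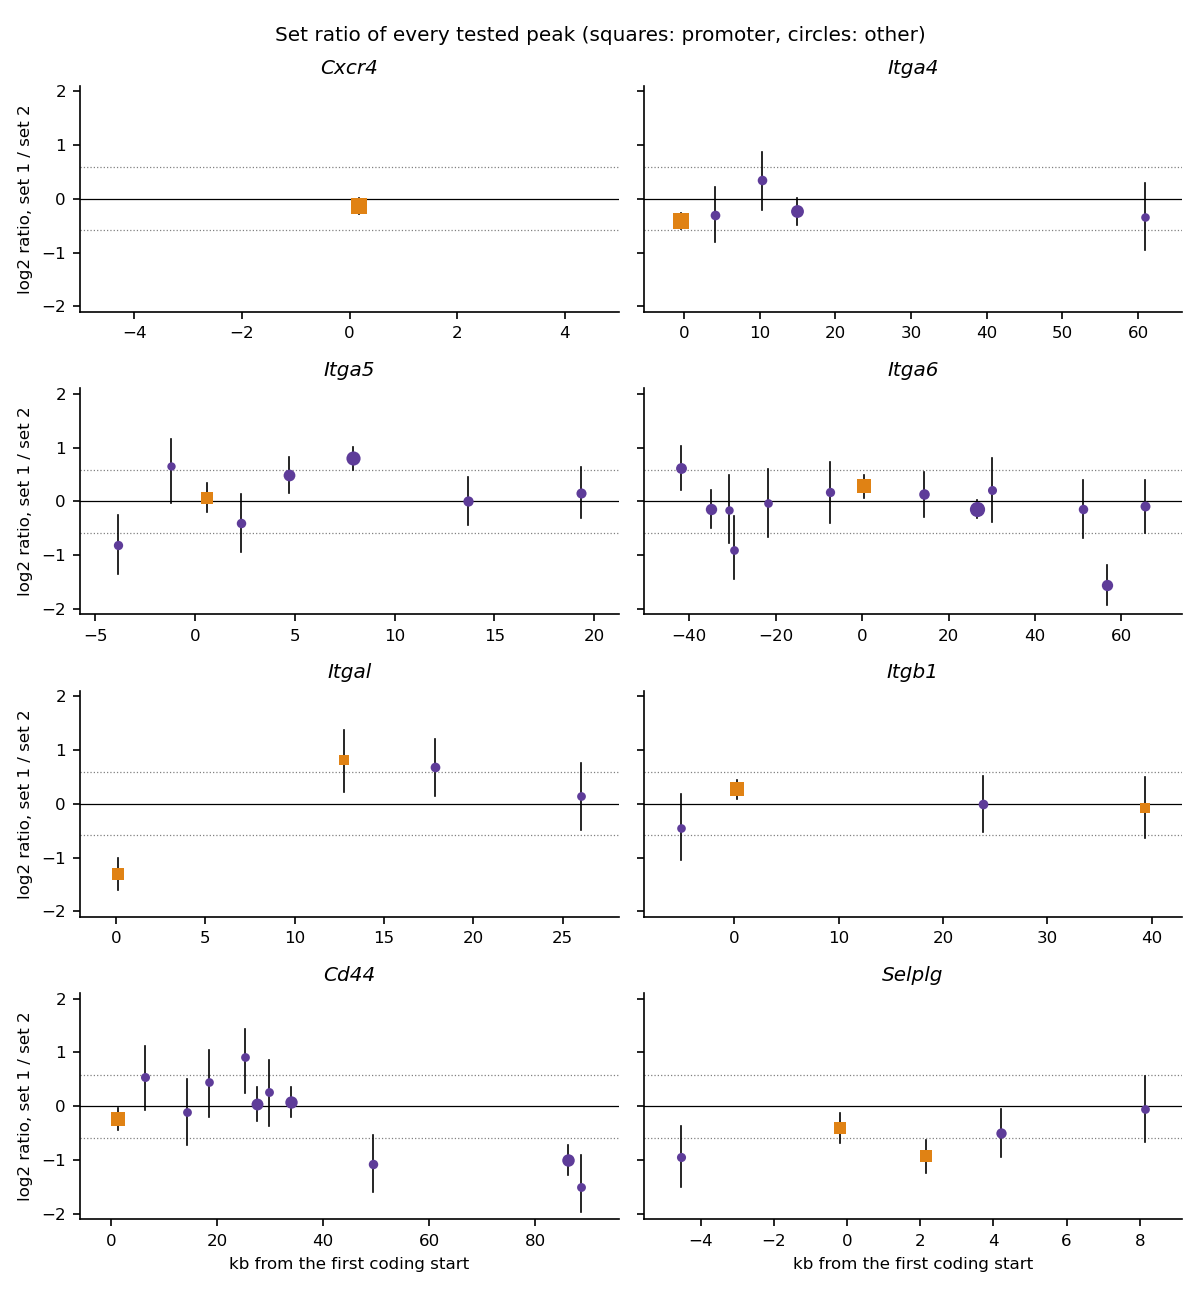
Log2 ratio of set 1 over set 2 (vertical axis, with a pseudocount of 1 CPM) of the 51 tested peaks against the distance of the peak centre from the first coding start in kb (horizontal axis), 1 panel per gene. Squares are promoter peaks, circles other peaks, a larger symbol means more counts, vertical lines are intervals of counting error and dotted lines mark 1.5-fold. The Itgal start (-1.30), the Itga6 peak at 56.6 kb (-1.56) and the 3 Cd44 peaks beyond intron 1 (-0.999 to -1.50) lie below the lower dotted line, and the Itga5 peak at 7.94 kb (0.80) lies above the upper one.

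Counted peak by peak, 1 of the 11 promoter peaks was past 1.5-fold in the direction of set 1 (the internal Itgal start) and 2 in that of set 2 (the Itgal start and the second Selplg start). Over the 16111 promoter peaks with at least 20 counts, 6.18% were past the fold towards set 1 and 5.11% towards set 2. The median log2 ratio was -0.13 over the 11 peaks and 0.0088 over all promoter peaks, of which the 5th and 95th percentiles were -0.59 and 0.65. Of the 40 tested peaks outside promoters, 5 (12.5%) were past the fold towards set 1 and 7 (17.5%) towards set 2, against 17.0% and 17.9% of the 63514 such peaks in the table. These shares were near or under the background, so the number of differing peaks outside promoters was not a feature of these genes. The 5 were the Itga5 peaks at 7.94 and -1.19 kb, the Itgal peak at 17.8 kb, the Itga6 peak at -41.9 kb and the Cd44 peak at 25.3 kb, and of these the Itga5 peak at -1.19 kb (23 counts) and the Cd44 peak (36 counts) rested on few counts. The 7 were the Itga6 peaks at 56.6 and -29.6 kb, the Cd44 peaks at 49.4, 86.2 and 88.7 kb, the Selplg peak at -4.53 kb and the Itga5 peak at -3.87 kb, of which the Itga6 peak at -29.6 kb (35 counts) and the Cd44 peak at 88.7 kb (40 counts) rested on few counts as well. With a minimum of 50 counts, 3 and 5 were past the fold. Peaks with under 50 counts in these lists are named because the counts are small, after their values were seen. The median log2 ratio of the 40 peaks was -0.041, against 0.028 over all peaks outside promoters.

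**Figure D3:**
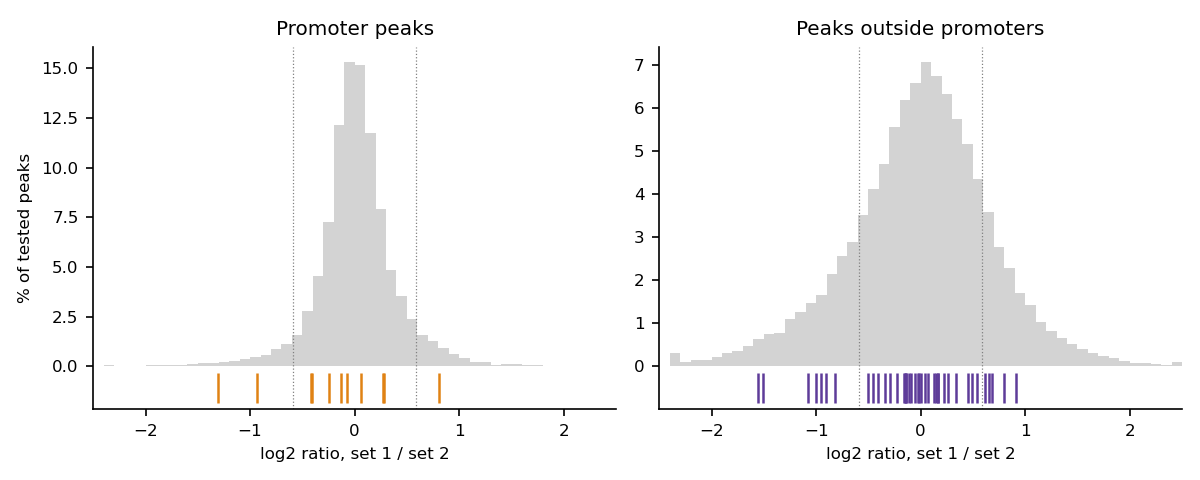
Distribution of the log2 ratio of set 1 over set 2 (horizontal axis) over all tested promoter peaks (left) and all tested peaks outside promoters (right), as a percentage of peaks per bin (vertical axes, of different scale; the end bins also hold values beyond them). Ticks under the bars are the 11 promoter peaks and the 40 other peaks of the 8 genes, and dotted lines mark 1.5-fold; the promoter ticks range from -1.30 to 0.81 and the other ticks from -1.56 to 0.91.

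Per cell, the promoters were open in few cells at once. After thinning, a cell of set 1 had a mean of 1.00 open promoters of the 8 and a cell of set 2 a mean of 1.09. None was open in 34.1% and 31.3% of cells, and 3 or more were open in 6.44% and 8.32%. The variance of the number per cell was 0.994 times in set 1 and 1.04 times in set 2 what 8 independent promoters with these shares would give. Pairwise phi coefficients, a correlation of open or not between 2 promoters across cells, lay between -0.034 and 0.054 over the 28 pairs of set 1 and between -0.046 and 0.055 over those of set 2. All points come from 1 library per set and sparse counts, so these weak values are a description only. The Itga5 and Selplg pair was the highest in set 1 and the lowest in set 2.

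The share of cells takes no account of peak width, so it ranked the genes differently from CPM per kb. By this share the same genes led in both sets, and the lowest gene differed. In set 1 Itga4 (19.4%), Cxcr4 (19.1%) and Itgb1 (17.9%) were open most often and Itgal (4.67%) least. In set 2 Itga4 (22.7%), Cxcr4 (20.4%) and Itgb1 (15.2%) again led, and Itga5 (6.79%) was lowest. The interval of the difference between the sets excluded 0 for Itgal and Selplg and included it for the other 6 genes at 4899 counts per cell, while at 9798 counts it excluded 0 for Itga4 too. Without thinning, the share of cells was higher for every gene, with Itgal lowest (8.92%) and Itga4 highest (32.0%) in set 1, and Itga5 lowest (12.1%) and Itga4 highest (34.7%) in set 2, and the interval of the Itgb1 difference of 6.00 points then also excluded 0 (1.41 to 10.5).

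**Figure D4:**
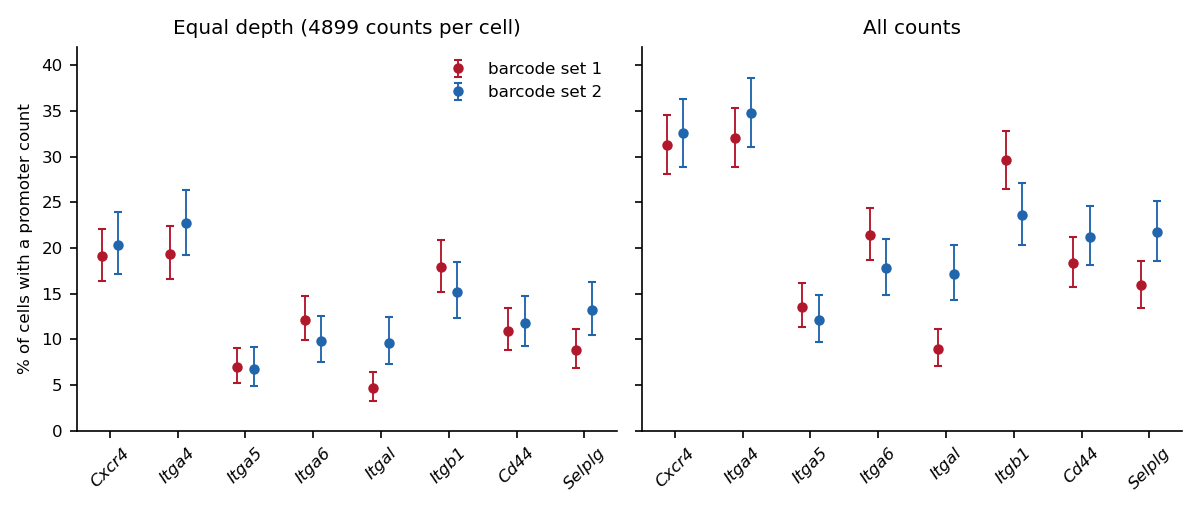
Percentage of cells (vertical axis) with at least 1 count in the promoter peaks of each gene, for set 1 (red) and set 2 (blue), after thinning each cell to 4899 counts (left) and with all counts (right); error bars are exact binomial intervals. Itgal and Selplg are the genes of the left panel with a difference whose interval excludes 0, at 4.67% against 9.64% and 8.81% against 13.2%.

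At the median, the centres of the promoter peaks of these genes held fewer CG dinucleotides (CpG) than those of all promoter peaks. The window lies at the peak centre and need not hold the start. The Cd44 promoter peak, for example, is centred 1.21 kb downstream of the first coding start. The values therefore describe peak centres and not the starts themselves. In the central 300 bp, their 11 promoter peaks had a median GC content of 52.7% and a median of 8 CpG, against 61.7% and 19 over all 16779 promoter peaks. The range was wide. The peaks at the Itgb1 and Itga6 starts had 49 CpG (76.7% GC) and 29 CpG (69.7% GC), those of Cd44 and Itga4 had 3 and 2 CpG, and the internal promoter peaks of Itgal and Itgb1 were lowest with 1 CpG (42% GC) and 0 CpG (43.7% GC). Their 48 other peaks had 50% GC and 3 CpG, close to the 49% and 4 of all peaks outside promoters.

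Short words bound by blood transcription factors were searched on both strands of the same windows, and none of the words spelled out here contains another. The PU.1 word GAGGAAGT was in 2 of the 11 promoter windows, those of Itga4 and Itgal, against 2.97% of all promoter windows, and in 5 of 48 other windows (10.4%) against 7.50%. The log2 ratios of these 5 peaks ran in both directions: they were 0.62 and -0.028 for the Itga6 peaks at -41.9 and -21.7 kb, and -0.999, -1.08 and -0.11 for the Cd44 peaks at 86.2, 49.4 and 14.4 kb. Both promoter peaks with the word in the window had a ratio below 0, -0.42 at Itga4 and -1.30 at Itgal. The median over all 11 promoter peaks was itself below 0, at -0.13. Outside the windows, the word also lay in the Cxcr4 promoter peak (log2 -0.13). It was likewise found in the Itga5 peak at 7.94 kb (log2 0.80) and the Itga6 peak at 26.6 kb (log2 -0.14). A link between the word and the set ratio was not tested. The GATA word AGATAA was in 1 promoter window (Cd44; 5.48% of all) and 9 other windows (18.8% against 14.5%), 5 of them at Cd44. The RUNX word TGTGGTT was in 1 promoter window (Cd44; 4.37% of all) and 6 other windows (12.5% against 12.5%). The TEAD word CATTCC was in 1 promoter window (Selplg; 11.04% of all) and 5 other windows (10.4% against 14.8%). The AP-1 word TGACTCA was in no promoter window (3.61% of all) and 2 other windows (4.17% against 9.59%), and the CTCF consensus was in no promoter window (0.989% of all) and 1 other window (2.08% against 5.51%). A match says only that the letters are present.

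Among 71 further genes of adhesion and homing, 4 loci (5.63%) were past 1.5-fold towards set 1 and 7 (9.86%) towards set 2, against 5.56% and 4.33% of all protein-coding loci, with a median log2 ratio of -0.025. The lists within them are small, so their counts are given as a description. The other 18 integrin chains had 3 past the fold (16.7%), all towards set 2: Itgax (1.38 against 9.78 CPM, log2 -2.83), Itga2 (41.0 against 72.6 CPM, log2 -0.82) and Itgb2 (31.3 against 54.8 CPM, log2 -0.81, -0.999 to -0.62). Itgb2 codes for the beta chain of LFA-1, so both LFA-1 genes were higher in set 2, and Itgax codes for another alpha chain that pairs with it. The third alpha chain of this kind in the list, Itgam, held 16.3 and 23.9 CPM (log2 -0.55), inside the fold. Beta chains of other integrins, such as Itgb3 (log2 0.21) and Itgb7 (log2 -0.30, which can pair with the alpha chain of Itga4), were inside it too.

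Of 13 other homing receptors and ligands, 1 was past the fold towards set 1 and 1 towards set 2. The one towards set 2 was the calcium-sensing receptor gene Casr (25.1 against 41.6 CPM, log2 -0.73). Cxcl12 (log2 0.040) and the second CXCL12 receptor gene Ackr3 (log2 0.047) were near equal, like Cxcr4. Of 10 selectins, sialomucins and their enzymes, Podxl (95.5 against 56.5 CPM, log2 0.76) was past the fold towards set 1, and 3 (Sele, Cd34 and Fut7) towards set 2. Fut7, the fucosyltransferase that makes selectin ligands such as PSGL-1 functional, held 44.1 and 69.8 CPM (log2 -0.66, -0.82 to -0.50). The P-selectin gene Selp itself held 80.7 and 88.4 CPM (log2 -0.13). The value of Sele (log2 -2.87) rested on 4 and 22 counts, and that of Cd34 was -0.96. In the list of 15 other adhesion molecules Ncam1 (log2 0.78) and in that of 15 cytoplasmic partners the kindlin gene Fermt2 (log2 0.83) were past the fold, both towards set 1, and none was past it towards set 2. The blood cell kindlin gene Fermt3 (log2 -0.099) and talin gene Tln1 (log2 -0.13), whose products switch integrins to the binding state, were inside the fold, and the leukocyte GTPase gene Rac2 was just inside it (39.8 against 58.8 CPM, log2 -0.56).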

How the data were processed

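Single-cell ATAC-seq libraries were made by the authors with the 10x Genomics v1.1 chemistry, and the submitters' processing notes name Cell Ranger ATAC 1.2.0 and the builds mm10 and GRCm38. The values used are the deposited raw counts of cut sites per peak and barcode, with no normalization. Whether the authors equalised depth between libraries is not given in the sources used here. A second deposited table, whose rows carry no peak names and which no label names, was not used. Peaks were assigned to GENCODE M21 protein-coding genes, and starts were read as counted from 0.

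CPM were computed per barcode set from all cells. The ratio of a locus has no pseudocount and that of a peak 1 CPM, with a minimum of 20 counts. A 1.5-fold difference was a rule of size, not a test. Intervals were exact Poisson for CPM, conditional binomial for ratios, Clopper-Pearson for shares and Newcombe for differences of shares. Shares of cells are expected values after thinning to 4899 counts, the 10th percentile of counts per cell, in 749 and 560 cells, with 69 and 76 shallower cells left out. The number of open promoters per cell is a mean over 100 draws. No doublet caller was run. The 57 cells with over 3 times the median counts were kept. Python 3.11.15, numpy 2.4.6 and scipy 1.17.1 were used, and ratios and intervals were tested on simulated data. The simulated counts were drawn independently, so that check did not cover the mostly even counts of the real data.

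All 8 genes and their promoter peaks are named, with the most counted other peak of each locus and the 5 highest and 5 lowest ratios of other peaks with at least 50 counts. Of the 71 further genes, up to 4 per direction in each list are named by size. Further ones (Itgam, Itgb3, Itgb7, Cxcl12, Ackr3, Selp, Fermt3, Tln1 and Rac2) are named for their function, after their values were seen. The genes, lists and words were chosen with earlier results of these data known. Single-gene results of some listed genes are not reported here.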

Additional observations from a re-analysis of the deposited data

How the results depend on the processing

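Of 64 locus ratios of the 8 genes under other settings, 63 stayed within the counting interval of the value given, and all 64 kept their sign. The exception was Itga4 with each peak counted once per cell, at -0.17, where its promoter ratio was -0.18. The Itga5 promoter ratio, near 0, was -0.11 in thinned cells and -0.014 without cells over 3 times the median counts. The 2 loci higher in set 2 became 1 with each peak counted once, where Itgal stayed past the fold (-0.63) and Selplg was inside it (-0.58). At a fold of 2 they became 0, and Itgal was inside the fold (-0.49) with 20000 bp upstream. The promoter peak higher in set 1 was no longer past the threshold (0) with each peak counted once, in thinned cells, without cells over 3 times the median counts, with a pseudocount of 5 CPM or at a fold of 2, which left 1 of the 2 promoter peaks higher in set 2. The 5 other peaks higher in set 1 became 3 with each peak counted once, 1 in thinned cells, 3 with a minimum of 50 counts, 1 with a pseudocount of 5 CPM and 0 at a fold of 2. The 7 higher in set 2 became 6 with each peak counted once and 5 with a minimum of 50 counts. They became 2, 3 and 3 in thinned cells, with that pseudocount and at that fold. Without cells over 3 times the median counts, 4 other peaks were past the fold towards set 1 and 9 towards set 2. Thinned cells hold fewer counts. Whether a peak dropped out there by missing the minimum or by a smaller ratio was not tested. Scaling by median-of-ratios moved every log2 ratio by -0.024. Shares of cells grow with depth: at 9798 counts per cell (553 and 422 cells) the Itga4 difference was -8.41 points, and without thinning the Itgal difference was -8.21. Leaving out the peak of the most extreme ratio, chosen after seeing the data, moved the ratio of the peaks outside promoters to 0.14 at Itga5 and -0.045 at Itga6. No paired analysis was possible because each group has 1 sample, no barcode set could be given a group, and no result comes from a test. The counting of 1 library per set limits every ratio, and differences between animals or libraries could not be measured.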
